A study of Homo sapiens with 40 samples.

Results

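The genes described here are 55 genes of the extracellular matrix and its remodelling: fibrillar collagens, basement membrane chains, other collagens, proteoglycans, elastic fibre proteins, adhesive glycoproteins, crosslinking enzymes, proteases with their inhibitors, and the PDGF receptors. They were taken by gene symbol from the array's annotation, by a rule that uses no measured value, though the list was drawn up with earlier results of these data known. Of the 55, 48 had a probe above the array's background on at least 4 arrays and could be tested, out of 13544 genes tested and 20028 genes named on the array. Of those 48, 31 were above background on all 39 arrays used, whereas DCN, FN1, LOX, LUM and TIMP3 passed only through the arrays of H1 cells at days 4 to 7 of OCT4 shRNA, so that counts over the 48 describe them and serve as no support. The other 7 genes, EMILIN1, FBN1, LAMA4, LOXL2, MMP2, NID2 and PDGFRA, were not tested.

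The series measured total RNA of human embryonic stem cells on Illumina bead arrays over a time course after transduction with lentivirus carrying an shRNA (a short hairpin RNA that lowers its target's mRNA) against OCT4, NANOG or SOX2, the transcription factors that hold these cells in the pluripotent state. The groups were H1 cells with OCT4 shRNA, H9 cells with OCT4 shRNA, H1 cells with NANOG shRNA, H1 cells with SOX2 shRNA and H1 cells with the control virus, each sampled once a day from day 0 to day 7. All were grown on Matrigel, itself a basement membrane extract, in mTeSR medium, and all received virus with polybrene. H9 cells had no control arm, the day 7 array of NANOG shRNA was left out because its values were on another scale, and each arm was a single time course. Neighbouring days therefore stood in for replicates: days 4 to 7 (days 4 to 6 for NANOG shRNA) formed 1 group, and p-values measured the scatter of days, not that of independent cultures.

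Collagens are triple helices built from chains of separate genes: fibrillar collagens assemble into the fibres of connective tissue, while type IV collagen chains and laminins form the sheet-like basement membrane on which epithelia and pluripotent cells sit. Small proteoglycans such as lumican and decorin bind collagen fibrils and set their spacing, lysyl oxidases crosslink them, and matrix metalloproteinases with their TIMP inhibitors remodel them. Undifferentiated stem cells are epithelial cells known mainly for making basement membrane components, and abundant fibrillar collagen is a feature of mesenchymal and other stromal cells.

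The targeted genes were checked first, on the log2 intensity scale used throughout, where background lay at 6.57. POU5F1, which encodes OCT4, was 12.33, 10.97, 10.04, 8.69, 7.17, 6.75, 6.77 and 6.46 on days 0 to 7 of OCT4 shRNA in H1 cells and 11.85, 11.54, 11.09, 10.92, 9.97, 9.76, 9.04 and 8.54 in H9 cells, and it stayed between 12.47 and 12.87 with the control virus. NANOG was 2.11 lower with NANOG shRNA than with the control virus over the late days (SE 0.20), and SOX2 was 1.99 lower with SOX2 shRNA (SE 0.26). The summed intensity of 10 trophoblast and amnion markers was 26817 to 39875 on the late arrays of H1 OCT4 shRNA, with all 10 above background on every array, against 952 to 1135 with the control virus; in H9 OCT4 shRNA it was 624 to 1072, with HAND1, GATA3, GATA2, TFAP2A, CDX2, KRT7 and ISL1 below background on all late arrays. Summed over 8 fibroblast markers it was 2353 to 7893 with H1 OCT4 shRNA and 4138 to 6478 with the control virus. FAP stayed below background throughout the late days in both arms, and TCF21 and PRRX1 did so with the control virus only. Late means were higher with H1 OCT4 shRNA for ACTA2 (11.13 against 9.36), TWIST1 (6.93 against 6.44), PRRX1 (6.72 against 6.19) and TCF21 (6.51 against 6.27). They were lower for THY1 (9.24 against 11.65), TWIST2 (6.64 against 6.89) and S100A4 (10.41 against 10.51). Over 5 of 6 neural crest markers (PAX3 did not pass) the sum was 994 to 3228 with H1 OCT4 shRNA and 324 to 442 with the control virus. Among them SNAI2 averaged 10.83 and 6.47 in those arms and TFAP2B 7.67 and 6.05, whereas FOXD3 was below background on every late OCT4 shRNA array, at 5.96 against 7.49. Over the 3 of 6 parietal and visceral endoderm markers that passed (not SOX17, GATA4 or GATA6) the sum was 354 to 1104 with H1 OCT4 shRNA and 117 to 191 with the control virus. Over the 3 of 6 endothelial markers that passed (not PECAM1, CDH5 or TIE1) it was 144 to 287, with KDR below background, against 379 to 479. These marker levels moved with the OCT4 results below, and their part in them was not tested.

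In H1 cells, OCT4 shRNA was accompanied by higher levels of most fibrillar collagens, of the proteoglycans lumican and decorin and of the adhesive protein TGFBI, while basement membrane chains moved less and CCN2, versican, COL6A1 and THBS2 were lower. Across the list, 27 of the 48 tested genes were higher and 4 lower than with the control virus on days 4 to 7 (limma, adjusted p below 0.05). Among all 13544 genes, 47.8% were called, with 23.7% of all genes higher and 24.2% lower. At a change of at least 2-fold the counts were 16 higher and 4 lower of 48, where 4.36% and 4.86% of all genes were that far apart. The median log2 difference of the 48 was 0.61, against -0.00 over all genes. In whole cultures, fewer cells of a type and less RNA per cell cannot be told apart, and the same holds for more of either.

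Of the 7 fibrillar collagen chains, 6 were higher with OCT4 shRNA and COL11A1 was not called. COL3A1, the single chain of type III collagen, was 8.42, 11.02, 11.60 and 11.69 on days 4 to 7 of OCT4 shRNA, against 6.20, 6.52, 6.57 and 6.32 with the control virus. All 4 control arrays were at or below background and the groups lay far apart, so that COL3A1 was at least 17.3-fold higher (limma, adjusted p = 6.2e-12). COL5A1, a chain of the type V collagen that starts fibril assembly, was 9.65, 11.81, 12.47 and 13.36 with OCT4 shRNA and 8.28, 8.27, 8.09 and 8.40 with the control virus, a log2 difference of 3.56 (SE 0.36, limma, adjusted p = 6.8e-10). Its level was higher on each later day than on the day before. COL5A2, the partner chain, was 9.10, 10.19, 9.92 and 9.74, against 7.53, 7.46, 7.48 and 7.02 with the control virus (log2 difference 2.36, SE 0.30, limma, adjusted p = 7.7e-08).

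COL2A1, the chain of cartilage type II collagen, was 9.30, 9.89, 10.05 and 9.97 with OCT4 shRNA and 6.85, 6.64, 6.65 and 6.51 with the control virus, which is 8.83-fold higher (limma, adjusted p = 1.3e-13). It had already reached its late level on day 5, unlike COL5A1. COL1A2 and COL1A1 encode the chains of type I collagen, the main collagen of skin and bone. COL1A2 was 11.30, 11.84, 12.46 and 13.57 with OCT4 shRNA, against 10.18, 10.25, 10.30 and 10.60 with the control virus (log2 difference 1.96, SE 0.31, limma, adjusted p = 3.1e-06), and no arrays of the groups overlapped. COL1A1 was 10.62, 12.05, 12.68 and 13.14, against 10.78, 11.01, 10.61 and 11.00: the day 4 array lay among the controls and the other 3 above them. Its late difference of 1.27 (SE 0.31, limma, adjusted p = 0.00094) was no longer called once the difference on days 0 and 1 was subtracted (1.21, adjusted p = 0.10). COL11A1, a minor fibrillar chain, was 8.37 to 9.06 with OCT4 shRNA and 7.79 to 8.17 with the control virus, and its difference of 0.58 missed the threshold (adjusted p = 0.10).

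**Figure D1:**
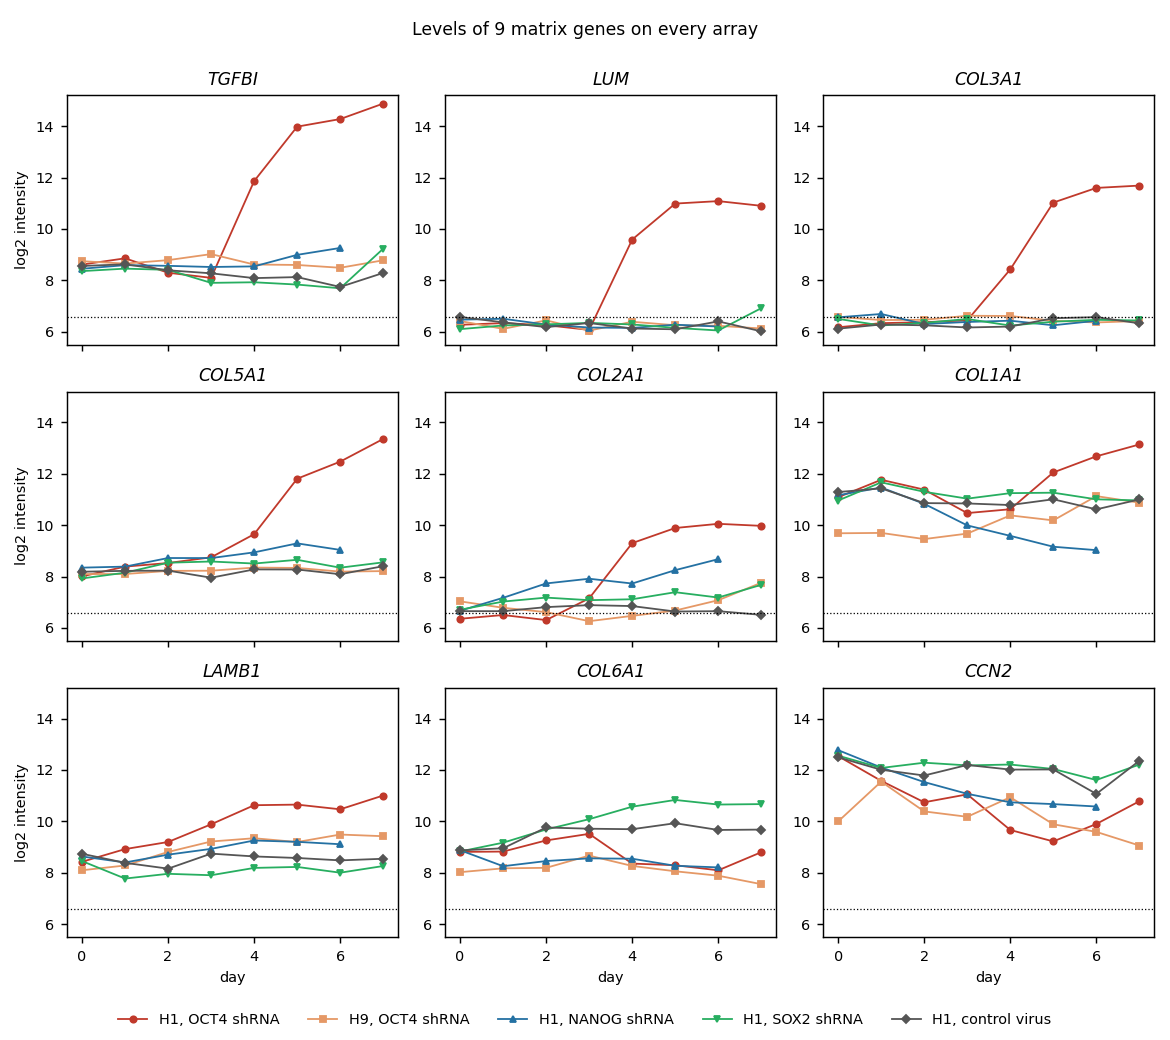
Log2 intensity of 9 matrix genes (vertical axis, one panel each) on every array against the day after transduction, with 1 line per arm and the background level of 6.57 dotted. LUM and COL3A1 sit at background in every arm on days 0 to 3 and reach 10.90 and 11.69 on day 7 of H1 OCT4 shRNA alone, COL1A1 falls to 9.03 on day 6 of NANOG shRNA, and COL6A1 ends at 8.80 with H1 OCT4 shRNA, 10.67 with SOX2 shRNA and 9.68 with the control virus.

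Among the proteoglycans, LUM (lumican) was 9.59, 10.99, 11.08 and 10.90 on days 4 to 7 of OCT4 shRNA and 6.12, 6.09, 6.40 and 6.01 with the control virus. All control arrays were below background, which makes LUM at least 16.8-fold higher. LUM, DCN, LOX, FN1 and TIMP3 could be tested only because they were high on these arrays, so that their values here are descriptions with no p. DCN (decorin), which lies next to LUM on chromosome 12, was 7.86, 9.42, 8.49 and 7.79, against 5.96, 6.18, 5.91 and 6.10, and was thus at least 3.53-fold higher. DCN was highest on day 5 and lower again on day 7, while LUM held its level. Another DCN probe, too dim to pass the filter, differed by -0.0188. BGN (biglycan), the third small proteoglycan of the list, was not called (log2 difference -0.13): it was 7.54, 6.96 and 7.76 on days 4 to 6 and 9.78 on day 7 of OCT4 shRNA, against 8.36, 8.39, 7.75 and 8.06 with the control virus.

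TGFBI, a secreted protein that links collagens to integrins and takes its name from its induction by TGF-beta, had the largest difference of the list. It was 11.86, 13.98, 14.28 and 14.88 with OCT4 shRNA and 8.08, 8.12, 7.74 and 8.29 with the control virus, which is 51.7-fold higher (log2 difference 5.69, SE 0.35, limma, adjusted p = 9.4e-15). On days 0 to 3 the same arm had been between 8.09 and 8.85. TNC (tenascin C), a glycoprotein of embryonic and healing matrix, was 9.75, 10.63, 10.76 and 10.70, against 8.97, 9.04, 8.62 and 8.72, a log2 difference of 1.62 (SE 0.17, limma, adjusted p = 2.1e-09). FN1 (fibronectin), the main cell-binding glycoprotein of early matrix, was 7.01, 7.21, 7.60 and 7.89 with OCT4 shRNA and below background on all 4 control arrays, and was at least 1.81-fold higher. A second FN1 probe differed by 1.46. THBS1 (thrombospondin 1), which can activate latent TGF-beta, was 8.75, 9.71, 10.73 and 10.75, against 9.27, 9.32, 8.40 and 9.77: 2 arrays lay within the control range. Its call (0.79, adjusted p = 0.023) ended without control day 6, where the difference was 0.53 (limma, adjusted p = 0.14), and also without OCT4 shRNA day 6 or day 7.

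The elastic fibre genes FBN2 (fibrillin 2, the fetal microfibril protein) and FBLN1 (fibulin 1) were higher with OCT4 shRNA, and ELN (elastin) was not called. FBN2 was 11.28, 10.50, 10.19 and 10.54, against 8.66, 8.81, 8.94 and 8.87 with the control virus, a log2 difference of 1.81 (SE 0.26, limma, adjusted p = 6.9e-07). It was the only one of these 3 that was highest on day 4. FBLN1 was 11.25, 11.56, 11.35 and 12.07, against 10.63, 10.85, 10.45 and 10.54 (log2 difference 0.94, SE 0.13). ELN lay between 6.29 and 6.60 with OCT4 shRNA and between 6.35 and 6.65 with the control virus, near background in both.

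Basement membrane genes had a median difference of 0.30, against 0.61 over the 48: 5 of the 11 tested were higher and none was lower, where 47.8% of all genes were called. LAMB1, the laminin beta 1 chain, was 10.63, 10.65, 10.47 and 11.01 with OCT4 shRNA and 8.63, 8.57, 8.48 and 8.54 with the control virus, a log2 difference of 2.13 (SE 0.15, limma, adjusted p = 3.9e-13). LAMC1, the gamma 1 chain that joins it in most laminins, was 1.07 higher (SE 0.09), and LAMA5, the alpha 5 chain of the laminin that pluripotent cells themselves deposit, was 0.92 higher (SE 0.15). LAMA1, the alpha 1 chain abundant in Matrigel, differed by 0.02 (adjusted p = 0.94). These 4 chains thus spanned log2 differences of 0.02 to 2.13.

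Among the type IV collagen chains, COL4A6 (0.89) and COL4A5 (0.50) were higher, whereas COL4A1 (-0.13) and COL4A2 (0.19), the chains of nearly all basement membranes, were not called. The same-day difference of COL4A6 was 1.55, 0.89, 0.78 and 0.34 on days 4 to 7. That of COL4A5 was 1.04, 0.55, 0.40 and -0.01, so that it was gone on day 7. COL4A1 was 10.11, 9.82 and 10.16 on days 4 to 6 of OCT4 shRNA and 11.28 on day 7, against 10.27 to 10.63 with the control virus, so that it lay under the controls on 3 days and above them on 1. COL18A1, the source of endostatin, NID1 (nidogen 1, a laminin linker) and HSPG2 (perlecan, a heparan sulfate proteoglycan) were not called either (0.30, -0.18 and 0.09). Both called chains are neighbours on chromosome X, transcribed away from each other with starts 380 bases apart, and COL4A1 and COL4A2 are arranged in the same way on chromosome 13 with starts 127 bases apart. RefSeq's GRCh38.p14 sequence of the 126 bases strictly between those last starts, chr13:110307158-110307283 on the plus strand, is shown because it is the single stretch from which both most used type IV collagen genes begin. It has 80.2% G and C and holds 1 GGGCGG (either strand) and no TATAAA.
COL4A1 to COL4A2: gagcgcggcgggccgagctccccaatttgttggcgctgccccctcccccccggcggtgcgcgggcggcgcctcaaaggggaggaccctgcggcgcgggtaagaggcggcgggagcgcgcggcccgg

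The 3 chains of type VI collagen, which forms beaded filaments around cells, did not move together. COL6A3 was 7.27, 10.31, 10.77 and 11.15 on days 4 to 7 of OCT4 shRNA, against 7.20, 7.42, 7.26 and 7.30 with the control virus: day 4 lay within the controls, and the late difference was 2.58 (SE 0.41, limma, adjusted p = 3.1e-06). COL6A1 was 8.36, 8.29, 8.09 and 8.80, against 9.69, 9.93, 9.66 and 9.68, and fell by 1.36 on the log2 scale relative to the control virus (SE 0.15, limma, adjusted p = 4.5e-09). The control arm's own COL6A1 was 0.83 higher on days 4 to 7 than on days 0 and 1 (limma, adjusted p = 0.025), the only called change of a list member in that arm (0.532% of all genes), and that call ended without control day 5 (0.77, adjusted p = 0.076) and without control day 7. Within the OCT4 shRNA arm COL6A1 was -0.43 against its own days 0 and 1 (adjusted p = 0.056). COL6A2 was 7.55, 7.44, 8.08 and 9.41, against 8.49, 8.82, 7.86 and 8.53, and was not called. COL12A1, a collagen that coats fibrils, was 0.87 higher, and COL9A3 (-0.27) and COL14A1 (-0.20) were not called.

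Lower with OCT4 shRNA, besides COL6A1, were CCN2, VCAN and THBS2. CCN2 (connective tissue growth factor), a matricellular protein whose gene is a standard target of the YAP and TEAD factors, was 9.66, 9.22, 9.90 and 10.78, against 12.01, 12.02, 11.07 and 12.36 with the control virus, and fell by 1.97 on the log2 scale (SE 0.33, limma, adjusted p = 8.1e-06). Every OCT4 shRNA array lay below every control array. VCAN (versican), a large proteoglycan that binds hyaluronan, was 9.13, 8.59, 8.45 and 8.94, against 10.30, 10.60, 10.36 and 10.31, and fell by 1.62 (SE 0.21, limma, adjusted p = 8.9e-08). THBS2 (thrombospondin 2, which limits fibril width and vessel growth in mice) was 6.57, 6.56, 6.47 and 6.94, against 7.87, 8.02, 8.08 and 7.40, and fell by 1.21 (SE 0.24, limma, adjusted p = 0.0001). Only 1 of these OCT4 shRNA arrays was above background, so the size of this fall is limited by the background level. CCN1, the sister gene of CCN2, was 10.40 and 10.54 on days 4 and 5 and 11.39 and 11.40 on days 6 and 7, within the control range of 10.77 to 11.95 on the last 2 days, and was not called (-0.62, adjusted p = 0.10).

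The 150 bases before the starts of CCN2 (chr6:131951373-131951522, minus strand) and THBS2 (chr6:169253847-169253996, minus strand) are shown because both genes were lower and both windows hold the same pair of short motifs. Capitals mark TATAAA, read toward the gene, and GGAATG, the core letters that TEAD factors recognise, on either strand (CATTCC on the other). The build is GRCh38.p14 and the sequence is RefSeq's.
CCN2: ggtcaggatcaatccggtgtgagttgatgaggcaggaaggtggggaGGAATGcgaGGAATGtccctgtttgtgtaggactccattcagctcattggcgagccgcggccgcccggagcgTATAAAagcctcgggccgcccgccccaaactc
THBS2: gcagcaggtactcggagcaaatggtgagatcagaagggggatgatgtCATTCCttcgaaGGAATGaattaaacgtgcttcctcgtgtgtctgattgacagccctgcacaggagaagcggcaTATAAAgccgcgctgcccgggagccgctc
TATAAA begins 32 bases before the start of CCN2 and 29 bases before that of THBS2. In the table of RefSeq promoters, 38 list members had 45 promoters. GGAATG was found within 250 bases before the start in 6 of those 45 (13.3%), those of CCN2, COL12A1, FBN1, SPARC, THBS1 and THBS2, and in 11.9% of all 35116 promoters. TATAAA was found in 5 of 45 (11.1%), those of CCN2, COL18A1, COL6A2, POSTN and THBS2, and in 6.80% of all. The motifs did not follow the direction of change: VCAN, also lower with OCT4 shRNA, had neither, and COL12A1 and THBS1, which hold GGAATG, were called higher. GGGCGG was found on either strand in 32 of 45 (71.1%) and in 42.6% of all, a gap that was not tested. ATGCAAAT, the octamer that OCT4 and its relatives recognise, was found on either strand in 1 of the 45, that of TNC, and in 1.63% of all. These matches describe letters in a window and are no sites of binding.

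Among the enzymes, LOX (lysyl oxidase), which crosslinks collagen and elastin, was 6.10, 7.07, 7.88 and 9.30 on days 4 to 7 of OCT4 shRNA and below background on all control arrays but day 3, and was at least 2.02-fold higher over the late days. The day 4 value lay among the controls and each later day was higher than the one before. LOXL1, a relative that acts on elastic fibres, was 0.55 higher. SERPINH1 (HSP47, the collagen chaperone of the endoplasmic reticulum) was 11.56, 11.44, 11.94 and 12.44, against 11.68, 11.66, 11.50 and 11.41, and was not called (0.28, adjusted p = 0.15). TIMP3, the inhibitor bound to the matrix, was at least 1.38-fold higher, TIMP2 0.51 higher, and TIMP1 0.12 apart and not called. MMP14, the membrane-bound collagenase that activates MMP2, was at least 1.23-fold higher, its control arrays being below background. MMP2 itself, which did not pass the filter, had deposited intensities of 128, 184, 237 and 473 on days 4 to 7 of OCT4 shRNA, with a late mean of 256, against 116 with the control virus. PDGFRB, a receptor of mesenchymal cells, was 0.70 higher, and PDGFRA, which did not pass the filter, had late means of 171 with OCT4 shRNA and 131 with the control virus.

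Of the 31 calls with OCT4 shRNA, 24 held under every alternative setting and 30 held with any single late array left out, THBS1 being the exception. Subtracting the difference on days 0 and 1 ended 6 calls, those of COL1A1, THBS1, LOXL1 (0.59, adjusted p = 0.064), MMP14 (0.35, adjusted p = 0.40), TIMP3 (0.89) and PDGFRB (0.36, adjusted p = 0.39). DCN did not hold with no filter, where another, dim probe represented it and differed by -0.0188.

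**Figure D2:**
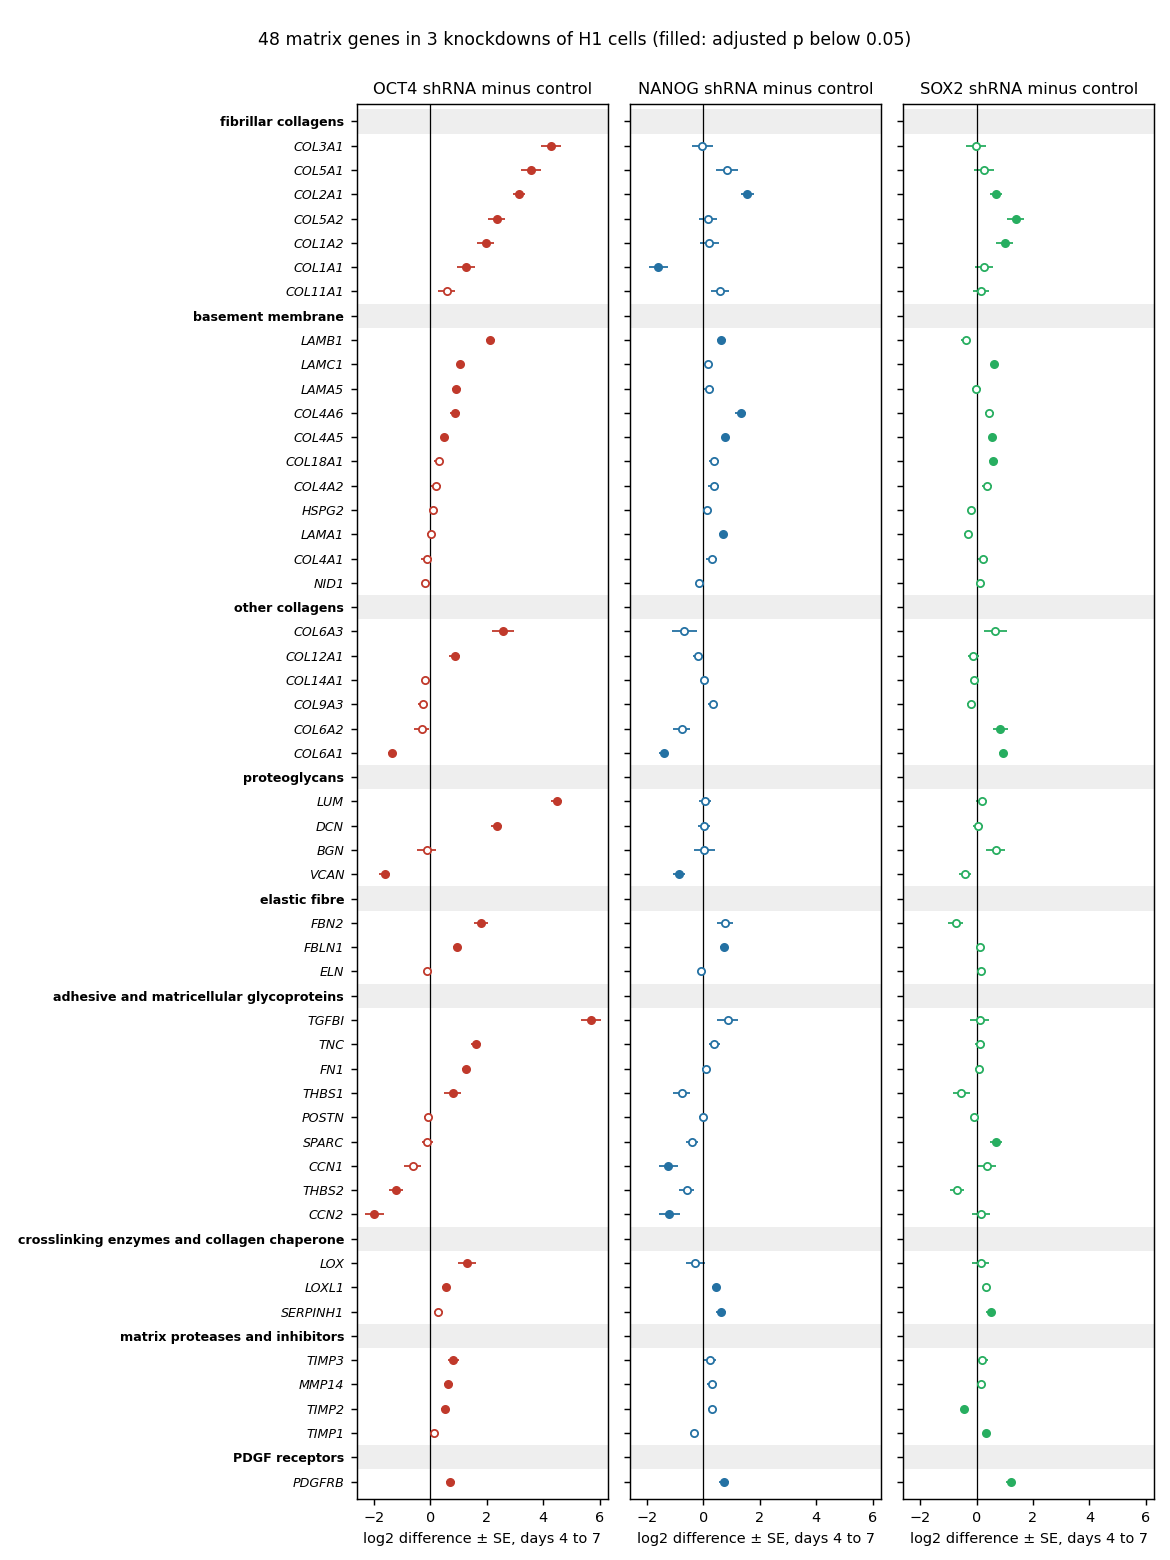
Log2 difference with its SE on days 4 to 7 (horizontal axis) for the 48 tested genes, grouped by role, in OCT4, NANOG and SOX2 shRNA each minus the same control arm; filled points have a limma adjusted p below 0.05. OCT4 shRNA has 27 filled points above 0 and 4 below, reaching 5.69 for TGFBI, NANOG shRNA has 9 and 5, and SOX2 shRNA has 12 and 1.

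With NANOG shRNA, the type IV chains COL4A5 and COL4A6 and the cartilage chain COL2A1 were higher, while COL1A1, COL6A1, CCN1, CCN2 and VCAN were lower. In all, 9 of the 48 genes were higher and 5 lower (limma), where 15.3% of all genes were called, 7.8% higher and 7.48% lower. The OCT4, NANOG and SOX2 comparisons share their control arrays, so their values stand side by side here and their likeness was not tested. Basement membrane genes made up 4 of the 9: COL4A6, COL4A5, LAMA1 (0.68, SE 0.14) and LAMB1 (0.63, SE 0.16).

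COL2A1 was 7.73, 8.25 and 8.68 on days 4 to 6 of NANOG shRNA, against 6.85, 6.64, 6.65 and 6.51 on days 4 to 7 with the control virus, a log2 difference of 1.56 (SE 0.23, limma, adjusted p = 1.1e-05). It already stood at 7.73 on day 2. COL4A6 was 8.56, 9.35 and 9.59, against 7.66, 7.80, 7.91 and 8.00 (log2 difference 1.32, SE 0.19, limma, adjusted p = 7.5e-06). COL4A5, its neighbour, was 9.89, 10.21 and 10.29, against 9.29, 9.27, 9.35 and 9.52 (log2 difference 0.77, SE 0.13). No array of either gene overlapped the control virus, and both were higher on each of these days than on the day before.

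COL1A1 was 9.58, 9.16 and 9.03 on days 4 to 6 of NANOG shRNA, against 10.78, 11.01, 10.61 and 11.00 with the control virus, and fell by 1.59 on the log2 scale (SE 0.33, limma, adjusted p = 0.00095). Its level was lower on every day from day 2 to day 6 than on the day before. COL1A2, the other type I chain, was 10.58, 10.54 and 10.50, against 10.18, 10.25, 10.30 and 10.60, and was not called (0.20, adjusted p = 0.76). COL6A1 was 8.54, 8.27 and 8.21, against 9.69, 9.93, 9.66 and 9.68, and was 1.40 lower than with the control virus (SE 0.16, limma, adjusted p = 1.8e-07). The day 0 arrays had been nearly equal, at 8.88 with NANOG shRNA and 8.87 with the control virus. The late NANOG shRNA arrays thus lay below their day 0 array and the late control arrays above theirs. The control arm moved further, so that much of the gap was a higher level of the control arm.

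CCN2 was 10.74, 10.67 and 10.58 with NANOG shRNA, against 12.01, 12.02, 11.07 and 12.36, and fell by 1.20 (SE 0.36, limma, adjusted p = 0.018). CCN1 was 10.49, 10.38 and 10.07, against 11.66, 11.82, 10.77 and 11.95, and fell by 1.24 (SE 0.34, limma, adjusted p = 0.01). VCAN was 9.97, 9.55 and 9.05, against 10.30, 10.60, 10.36 and 10.31, and fell by 0.87 (SE 0.22, limma, adjusted p = 0.0064). For these 3 genes the groups did not overlap, yet each call ended without NANOG shRNA day 6: CCN2 was then -1.16 (adjusted p = 0.076), CCN1 -1.12 (0.067) and VCAN -0.63 (0.10), all p from limma. The CCN2 call also ended without NANOG shRNA day 5 or control day 7. PDGFRB and SERPINH1 lost their calls in the same way without NANOG shRNA day 6, with differences of 0.59 and 0.49, and LOXL1 lost its call without any of NANOG shRNA days 4, 5 and 6 or control days 5 and 7, its highest adjusted p being 0.12 at 0.41.

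TGFBI was 8.54, 8.99 and 9.26 with NANOG shRNA, all above the control range of 7.74 to 8.29, but its difference of 0.87 missed the threshold (limma, adjusted p = 0.12). LUM (0.05), DCN (0.02) and COL3A1 (-0.04) were within 0.05 of the control virus and at background in both arms. Once the difference on days 0 and 1 was subtracted, 2 of the 14 NANOG calls were left, those of COL4A6 (1.22, adjusted p = 0.045) and COL6A1 (-1.05, adjusted p = 0.04).

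With SOX2 shRNA, chains of types I, II, V and VI collagen and the receptor PDGFRB were higher, and TIMP2 was lower. Of the 48 genes, 12 were higher and 1 lower (limma), where 8.21% of all genes were called, 3.54% higher and 4.67% lower. At 2-fold or more there were 2 of 48, COL5A2 and PDGFRB, against 0.244% of all genes in that direction. Fibrillar collagens, with COL5A2, COL1A2 and COL2A1, and basement membrane genes, with LAMC1, COL18A1 and COL4A5, gave 3 calls each.

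COL5A2 was 8.56, 8.71, 8.90 and 8.89 on days 4 to 7 of SOX2 shRNA, against 7.53, 7.46, 7.48 and 7.02 with the control virus, a log2 difference of 1.39 (SE 0.30, limma, adjusted p = 0.0024). In both arms it had been higher on day 1 than on day 0, at 8.76 against 7.29 with SOX2 shRNA and at 8.39 against 7.03 with the control virus. It then held its level with SOX2 shRNA and was lower on later days with the control virus. COL1A2 was 11.37, 11.41, 11.06 and 11.50, against 10.18, 10.25, 10.30 and 10.60 (log2 difference 1.00, SE 0.31, limma, adjusted p = 0.038). The groups did not overlap, but leaving out any 1 of 6 of the 8 arrays (SOX2 shRNA days 4, 5 and 7, control days 4, 5 and 6) ended the call, with an adjusted p of up to 0.097 at a difference of 0.94.

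PDGFRB, through which PDGF drives mesenchymal cells, was 8.33, 8.43, 8.20 and 8.47 with SOX2 shRNA, against 7.17, 7.24, 6.81 and 7.34 (log2 difference 1.22, SE 0.16, limma, adjusted p = 3.9e-06). On day 0 it had been 8.10 with SOX2 shRNA and 7.95 with the control virus, and on day 1 it was 8.19 and 6.98, so that the gap opened through the lower level of the control arm. COL6A1 was 10.57, 10.83, 10.65 and 10.67 with SOX2 shRNA, against 9.69, 9.93, 9.66 and 9.68 (log2 difference 0.94, SE 0.15, limma, adjusted p = 6.4e-05), above every control array. COL6A2, its neighbour on chromosome 21, was 9.37, 9.36, 9.21 and 9.14, against 8.49, 8.82, 7.86 and 8.53 (log2 difference 0.85, SE 0.27, limma, adjusted p = 0.049).

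TIMP2, an inhibitor of metalloproteinases that also takes part in MMP2 activation, was 8.72, 9.15, 8.98 and 8.81 with SOX2 shRNA, against 9.23, 9.29, 9.44 and 9.42, and fell by 0.43 (SE 0.11, limma, adjusted p = 0.015). It had been lower from the start, at 9.0 and 8.92 on days 0 and 1, against 9.59 and 9.64, and the late difference minus the early one was 0.23. A second TIMP2 probe differed in the opposite direction. Leaving out single late arrays ended 8 of the 13 SOX2 calls: SPARC (osteonectin, a collagen-binding protein), TIMP1, SERPINH1, COL18A1, COL1A2, COL2A1, COL6A2 and TIMP2, at differences of 0.66, 0.31, 0.44, 0.55, 0.94, 0.57, 0.66 and -0.36 where the adjusted p was highest. The arrays were SOX2 shRNA day 4 for TIMP2, day 5 for SPARC and COL18A1 and day 7 for COL1A2 and COL2A1, and control day 6 for COL6A2 and day 7 for SERPINH1 and TIMP1, with others among the 8 also ending a call. The calls of COL5A2, PDGFRB, COL6A1, LAMC1 (0.63, SE 0.09) and COL4A5 (0.55, SE 0.12) held with each array left out. Once the difference on days 0 and 1 was subtracted, no SOX2 call was left (adjusted p from 0.14 for LAMC1 to 0.86 for TIMP2, limma).

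The arms were also compared with each other directly. COL2A1, COL4A5 and PDGFRB were called higher in all 3 knockdowns. Once the difference on days 0 and 1 was subtracted, COL2A1 and COL4A5 stayed called with OCT4 shRNA alone, and PDGFRB in no arm. COL2A1 was 1.59 higher with OCT4 shRNA than with NANOG shRNA (SE 0.23, limma, adjusted p = 1.2e-06) and 0.88 higher with NANOG shRNA than with SOX2 shRNA (SE 0.23, limma, adjusted p = 0.0063), the second of which ended without NANOG shRNA day 6 (0.65, adjusted p = 0.092). Called in opposite directions between arms were COL1A1, COL6A1 and TIMP2. For neither set of 3 genes was the share over all genes counted, so both are descriptions. COL1A1 was 2.87 higher with OCT4 shRNA than with NANOG shRNA (SE 0.33, limma, adjusted p = 2.3e-08). COL6A1 was 2.30 lower with OCT4 shRNA than with SOX2 shRNA (log2 difference -2.30, SE 0.15, limma, adjusted p = 4.4e-14), and -2.34 with NANOG shRNA against SOX2 shRNA (SE 0.16), while OCT4 and NANOG shRNA differed by 0.04 (adjusted p = 0.85). TIMP2 was 0.94 higher with OCT4 shRNA than with SOX2 shRNA (SE 0.11, limma, adjusted p = 4.5e-08). Part of this gap was present early: on days 0 and 1 TIMP2 differed from the control virus by -0.60 and -0.72 with SOX2 shRNA. With OCT4 shRNA it differed by -0.26 and -0.06 on those days. A second TIMP2 probe went the other way with SOX2 shRNA against the control virus.

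FBN2 was 10.19 to 11.28 on the late days of OCT4 shRNA, 9.32 to 9.76 with NANOG shRNA and 7.98 to 8.14 with SOX2 shRNA, against 8.66 to 8.94 with the control virus. It was 2.55 higher with OCT4 shRNA than with SOX2 shRNA (SE 0.26, limma, adjusted p = 1.1e-09) and 1.51 higher with NANOG shRNA than with SOX2 shRNA (SE 0.28, limma, adjusted p = 0.00017), although neither NANOG shRNA (0.77) nor SOX2 shRNA (-0.74) was called against the control virus. LAMB1 had the same order, with 2.52 between OCT4 and SOX2 shRNA (SE 0.15) and 1.02 between NANOG and SOX2 shRNA (SE 0.16, limma, adjusted p = 2.5e-05). In all, OCT4 shRNA was called higher than NANOG shRNA for 21 list members and lower for 3, where 42.9% of all genes were called, 21.1% higher and 21.7% lower. Against SOX2 shRNA the counts were 25 and 10, where 46.9% of all genes were called, 23.6% higher and 23.3% lower. NANOG against SOX2 shRNA gave 8 and 11, where 18.0% were called, 9.48% higher and 8.48% lower. With any single late array left out, 22 of the 24 calls of OCT4 against NANOG shRNA held. The same was so for 26 of 35 calls of OCT4 against SOX2 shRNA and 15 of 19 of NANOG against SOX2 shRNA. Under every alternative setting run for them 21, 22 and 11 calls held, in that order. Subtraction of days 0 and 1 was not among these settings, so whether these calls outlast it was not tested.

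In H9 cells, the changes of TGFBI, LUM, COL3A1, COL5A1 and COL2A1 over the course of OCT4 shRNA lay between -0.08 and 0.17, against 3.38 to 5.02 in H1 cells, while LAMB1 and TNC were higher on the late days and VCAN was lower. Other fibrillar chains differed less: COL1A2 changed by 0.82 in H9 cells (not called) and by 2.49 in H1 cells, and COL1A1 by 0.95 and 0.70, called in neither. COL11A1 was called in H9 cells (1.05, adjusted p = 0.027) and not in H1 cells (0.38), and the difference between the lines was not called for COL1A1 or COL11A1. Without a control arm, the H9 comparison was days 4 to 7 minus days 0 and 1, in which 6 of the 48 genes were higher and 4 lower (limma), against 26.8% of all genes called, 13.8% higher and 13.0% lower. In H1 cells the same contrast gave 25 higher and 4 lower, against 41.7% of all genes called, 21.6% higher and 20.1% lower. The fall of POU5F1 in H9 cells was also smaller: its change differed by 2.49 between the lines (H9 minus H1, SE 0.46). On day 7, H9 cells had POU5F1 at 8.54, TGFBI at 8.78 and COL3A1 at 6.42. On day 3, H1 cells had POU5F1 at 8.69, TGFBI at 8.09 and COL3A1 at 6.44, the last day before TGFBI and COL3A1 were high in that arm. SOX2 differed at those points, at 12.93 in H9 cells on day 7 and 10.96 in H1 cells on day 3. These are single arrays of different days. Whether the matrix changes depended on the POU5F1 level or on the line was not tested.

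TGFBI was 8.61, 8.60, 8.49 and 8.78 on days 4 to 7 in H9 cells, within 0.3 of its days 0 and 1 (8.74 and 8.65), and its change differed from that of H1 cells by -5.09 (SE 0.60, limma, adjusted p = 1.7e-07). LUM, COL3A1 and DCN stayed at or near background on all 8 H9 arrays, with highest values of 6.44, 6.62 and 6.09. COL5A1 was 8.35, 8.33, 8.19 and 8.21 on the late days in H9 cells, against 8.10 and 8.10 on days 0 and 1. COL2A1 was 6.47, 6.68, 7.08 and 7.76, so that it was above its starting values of 7.03 and 6.78 on days 6 and 7 alone. In total 21 list members changed differently in the lines, 18 with a lower change in H9 cells and 3 with a higher one, against 28.3% of all genes called, 14.0% higher and 14.3% lower.

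COL5A2 moved in opposite directions. In H9 cells it was 7.19, 7.32, 6.98 and 7.57 on days 4 to 7, against 8.48 and 9.03 on days 0 and 1, and fell by 1.49 on the log2 scale (SE 0.37, limma, adjusted p = 0.0026). In H1 cells it was 9.10, 10.19, 9.92 and 9.74, against 7.12 and 7.85, a change of 2.26. The difference of the changes was -3.75 (SE 0.52, limma, adjusted p = 2.4e-06). On days 0 and 1, H9 cells thus had the higher level of the 2 lines.

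LAMB1 was 9.34, 9.19, 9.49 and 9.42 on the late days in H9 cells, against 8.10 and 8.28 on days 0 and 1, a change of 1.17 (SE 0.19, limma, adjusted p = 1.8e-05). That was 0.84 less than in H1 cells (difference of changes -0.84, SE 0.26, limma, adjusted p = 0.015). VCAN was 9.97, 9.03, 9.50 and 10.22, against 10.96 and 10.83, and fell by 1.22 (SE 0.25, limma, adjusted p = 0.00049), where its H1 change was -1.95 and the difference of changes was not called. TNC was 9.29, 9.17, 8.59 and 8.93, against 8.06 and 8.47, a change of 0.73 (SE 0.21, limma, adjusted p = 0.0087), although days 2 and 3 had been higher at 9.54 and 9.69. SERPINH1 was 11.28, 11.12, 10.87 and 11.13, against 11.78 and 11.93, and fell by 0.76 (SE 0.19, limma, adjusted p = 0.0035).

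The type IV chains COL4A1 and COL4A2 had the higher change in H9 cells, unlike the fibrillar chains COL1A2, COL2A1, COL3A1, COL5A1 and COL5A2. The fibrillar chains COL1A1 and COL11A1 also had the higher change in H9 cells, without a called difference. The H9 change of COL4A1 itself was 0.44 and was not called. COL4A2 was 8.15, 8.63, 8.97 and 8.84 on the late days in H9 cells, against 7.97 and 7.92 on days 0 and 1 (change 0.70, SE 0.22, limma, adjusted p = 0.014), and its change exceeded that of H1 cells by 1.04 (SE 0.30, limma, adjusted p = 0.01). The change of COL4A1 exceeded that of H1 cells by 0.88 (SE 0.32, limma, adjusted p = 0.037). That of THBS2, with 1 of 4 late H1 arrays above background, exceeded its H1 change by 1.14 (SE 0.42, limma, adjusted p = 0.041). Both last calls ended without some single arrays: COL4A1 without H1 OCT4 shRNA days 4, 5 or 6 or H9 days 6 or 7 (0.70 and adjusted p = 0.086 at its highest), THBS2 without H1 days 5 or 6 or H9 days 4 or 5 (0.87 and adjusted p = 0.092 at its highest). The H9 calls of COL4A2 (0.59, adjusted p = 0.051) and COL11A1 (1.02, adjusted p = 0.052) ended without H9 day 6. The lower changes in H9 cells of LAMB1, COL1A2, FBN2, LAMA5, LOX and THBS1 were no longer called with the arms fitted alone (limma, adjusted p from 0.051 to 0.15) or without day 0 of every arm, where they were -0.69, -1.14, -1.25, -0.86, -1.63 and -1.73 (limma, adjusted p from 0.0999 to 0.21). Some of them also ended without a later day: LAMB1 without day 5 (-0.80), COL1A2 without day 6 or 7 (-1.58 and -1.17), FBN2 without day 1, 4 or 5 (-1.60, -0.92 and -1.29), LAMA5 without day 1 (-0.90), LOX without day 1 or 6 (-1.57 and -1.51) and THBS1 without day 1 or 7 (-1.55 and -1.20). The COL4A2 difference ended without day 1 (0.86, limma, adjusted p = 0.13). Restricting the array to the probes before the break in the H9 columns left 26 list members, of which 4 were called in H9 cells and 11 between the lines.

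**Figure D3:**
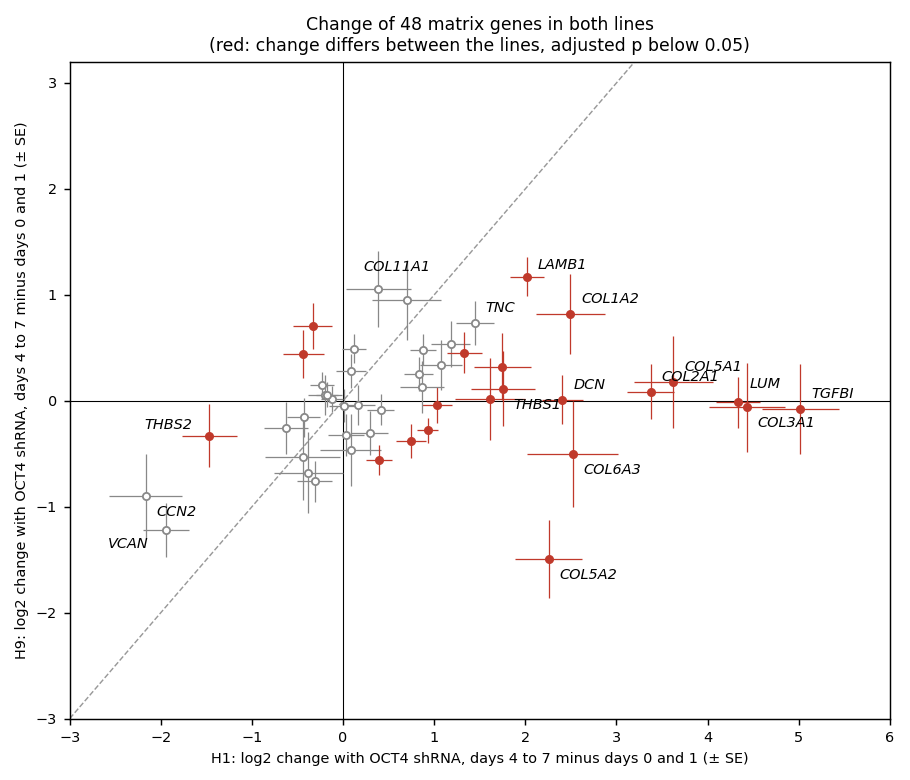
Log2 change with its SE (days 4 to 7 minus days 0 and 1) with OCT4 shRNA for 48 genes, in H9 cells (vertical axis) against H1 cells (horizontal axis); red points differ between the lines (limma adjusted p below 0.05) and the dashed line marks equal changes. TGFBI, COL3A1 and LUM lie at H1 changes of 5.02, 4.43 and 4.34 and H9 changes of -0.08, -0.06 and -0.01, LAMB1 at 2.02 and 1.17, and COL5A2 at 2.26 and -1.49.

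The order in time was read from the same-day difference from the control virus, taking as the onset the first day from which a gene stayed at least 2-fold apart to the last day. These onsets are descriptions of single arrays and carry no test. With OCT4 shRNA, LAMB1 came first, on day 2, and FBN2 on day 3. Day 4 followed with 8 genes: COL1A2, COL2A1, COL3A1, COL5A1, COL5A2, LUM, DCN and TGFBI. COL1A1, COL6A3, FN1 and TNC followed on day 5, LAMC1, COL12A1, LOX and TIMP3 on day 6, and BGN, FBLN1, SERPINH1 and MMP14 were 2-fold higher on day 7 only. Among the lower genes, CCN2 was 2-fold lower from day 2 and VCAN from day 4.

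With NANOG shRNA, COL6A1 was 2-fold lower from day 2, COL1A1 from day 4, VCAN from day 5 and THBS2 on day 6, while COL2A1 and COL4A6 were 2-fold higher from day 5 and TGFBI and PDGFRB on day 6. With SOX2 shRNA, PDGFRB was 2-fold higher from day 1, COL5A2 from day 4 and COL2A1 on day 7, and THBS1 was 2-fold lower on day 7. Averaged over days 2 and 3, 4 of 48 genes were called with OCT4 shRNA (5.21% of all genes), all higher: FBN2 (1.35), LAMB1 (1.09), TNC (0.80) and HSPG2 (0.65). NANOG shRNA gave COL18A1 (0.82) and COL6A1 (-1.23), against 3.92% of all genes, and 4 calls with day as a block. SOX2 shRNA gave PDGFRB (1.16) and TIMP2 (-0.85), against 0.406%. With 2 arrays a group, each OCT4 and SOX2 call here ended when 1 array was left out: LAMB1 without OCT4 shRNA day 3 (0.75, adjusted p = 0.19) or control day 2, FBN2 (1.02, adjusted p = 0.42) and HSPG2 (0.21, adjusted p = 0.76) without OCT4 shRNA day 3 or either control array, and TNC (0.76, adjusted p = 0.36), PDGFRB (1.08, adjusted p = 0.17) and TIMP2 (-0.80, adjusted p = 0.18) without any of the 4. COL18A1 likewise ended without any of its 4 arrays (0.67, adjusted p = 0.37).

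**Figure D4:**
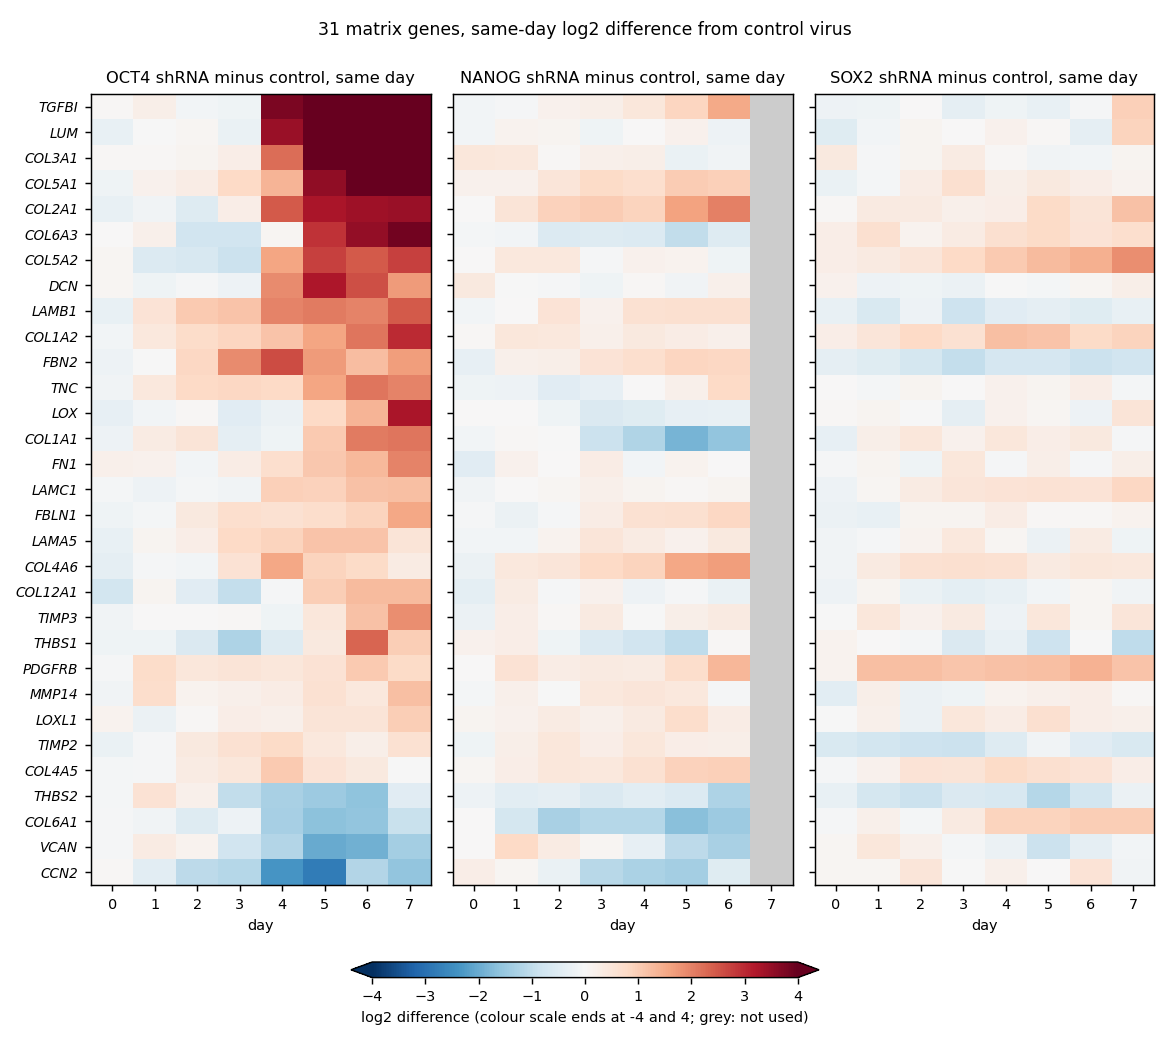
Same-day log2 difference from the control virus (colour, red higher and blue lower) for the 31 genes called with OCT4 shRNA, by day (horizontal axis), for OCT4, NANOG and SOX2 shRNA. LAMB1 and FBN2 turn red on days 2 and 3 of OCT4 shRNA, 8 genes including COL3A1, LUM and TGFBI on day 4, and LOX and TIMP3 on day 6, while CCN2 turns blue from day 2 and COL6A1 from day 2 of NANOG shRNA.

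Other genes of the matrix pathway were counted from further lists, to be read against the share of all genes called: 47.8% with OCT4 shRNA (23.7% higher, 24.2% lower), 15.3% with NANOG shRNA and 8.21% with SOX2 shRNA. Of 19 tested matrix receptors (26 listed), which carry cells on collagen, laminin and hyaluronan, 9 were higher and 1 lower with OCT4 shRNA, a share of 52.6% near that of all genes. ITGA2, the integrin chain of the main collagen receptor, was 8.83, 9.63, 10.59 and 10.55, against 7.39, 7.15, 7.30 and 7.16 with the control virus (log2 difference 2.65, SE 0.21, limma, adjusted p = 6.1e-12). CD44, the hyaluronan receptor, was 1.76 higher and ITGAV 1.22 higher. With NANOG shRNA 3 receptors were higher and 1 lower, ITGA5, the fibronectin receptor chain, being 1.27 higher, and with SOX2 shRNA 2 were higher, ITGB5 (0.71) and ITGB1 (0.61).

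Of 12 tested proteoglycans and hyaluronan linkers outside the list (18 listed), 3 were higher and 4 lower with OCT4 shRNA, or 58.3% against 47.8% of all genes. HAPLN1, which ties versican and aggrecan to hyaluronan, was 7.00, 7.23, 8.62, 11.63, 12.82, 12.21, 11.61 and 11.19 on days 0 to 7 of OCT4 shRNA and 6.92 to 7.61 on all days with the control virus (late log2 difference 4.79, SE 0.38, limma, adjusted p = 5.2e-12). It was thus high on day 3, a day before LUM, COL3A1 and TGFBI. The glypicans GPC4 and GPC2, heparan sulfate carriers at the cell surface, fell by 2.58 and 1.84. With NANOG shRNA 2 were higher, with GPC3 at 1.43, and BCAN (brevican) fell by 1.13. With SOX2 shRNA 1 was higher, and BCAN fell by 1.11.

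Of 23 tested genes that modify or secrete collagen (28 listed), 3 were higher and 7 lower with OCT4 shRNA, or 43.5%, near the 47.8% of all genes. BMP1, the enzyme that trims fibrillar procollagens, was 1.66 higher (SE 0.21, limma, adjusted p = 6e-08), P3H2, a prolyl hydroxylase of basement membrane collagen, fell by 0.87, and LOXL3 by 0.65. With NANOG shRNA 1 was higher and 4 lower, including PLOD2, a lysyl hydroxylase, which fell by 0.92. With SOX2 shRNA 2 were higher and 2 lower, including CRTAP, a partner of prolyl 3-hydroxylase, which fell by 1.11. Of 15 tested collagen chains outside the list (23 listed), 1 was higher and 5 lower with OCT4 shRNA, against the same 47.8% of all genes: the cartilage chain COL9A1 fell by 1.70 there and was 1.24 higher with NANOG shRNA, where 3 were higher and 1 lower. With SOX2 shRNA 1 of these chains was higher and 2 lower.

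The remaining lists, of 6 to 12 tested genes each, gave with OCT4 shRNA (47.8% of all genes called) 6 higher and 4 lower of 12 elastic fibre genes (EMILIN2 1.80 higher, and FBLN2 fell by 1.01), 4 and 4 of 10 proteases and inhibitors (MMP9 2.61 higher, and MMP16 fell by 1.73), 2 and 1 of 6 further basement membrane genes (LAMB2 1.12 higher) and 3 and 2 of 7 TGF-beta and PDGF genes (PDGFC 1.36 higher, and PDGFB fell by 0.88). MMP9 was 7.38, 10.19, 11.91 and 13.84 on days 4 to 7 of OCT4 shRNA, so that its day 4 array lay below the control range of 7.86 to 8.53. With NANOG shRNA (15.3% of all genes called) the same 4 lists gave 1 and 1, 0 and 1, 0 and 2, and 1 and 1, with LTBP3 (-0.84), MMP24 (-1.23), PXDN (-0.71) and PDGFB (-1.20) lower. With SOX2 shRNA (8.21%) they gave 0 and 1, 2 and 1, 1 and 0, and 2 and 0, with MMP16 (0.80), MMP15 (0.71) and PDGFA (0.78) higher.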

How the data were processed

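Total RNA was measured in 5 arms of 8 days each on 1-colour Illumina bead arrays from biotinylated cRNA, per the labels' protocols. The deposited values are linear intensities. At least 98.4% of each column's values occur exactly in the first column, the pattern that quantile normalization between arrays leaves, and the lowest is 91.0, so background was taken as not subtracted. The software is not given in the sources used here. The columns of H9 cells, as deposited, run out of step with the probe names by 2 rows after 13056 rows: their correlation with the H1 columns was 0.978 before that point, 0.225 after it and 0.985 once moved, so they were moved, which cost 30 probes next to that point. The day 7 column of NANOG shRNA has a median of 6.80, where the others lie between 135.6 and 135.7, and was left out, which leaves 39 arrays. A further deposited table holds 80 value columns whose names match no label, and they were not used. No chip or batch is named in the labels, and the number of arrays limits the precision.

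Intensities were background corrected (normexp, offset 50) and taken to log2, so that fold changes of dim genes are understated. Probes had to exceed an intensity of 145 on at least 4 arrays. That level was set from 455 olfactory receptor probes, near the 99th percentile of a normal distribution with their median and median absolute deviation. The observed percentile of these probes was not taken. A gene was represented by its brightest passing probe. Of the members' 88 probes 66 passed, and 17 members had more than 1. Arms by windows of days 0 and 1, 2 and 3, and 4 to 7 were fitted with limma 3.58.1 (R 4.3.3), after a check on simulated data, with Benjamini-Hochberg adjustment over 13544 genes and two-sided tests, and an adjusted p below 0.05 was called. Every adjusted p in the text is from limma. Where a gene was below background on all arrays of a group, "at least N-fold" sets the bright group's mean against the higher of the lowest detected signal and the dim probe's own.

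Alternatives were no background correction, an offset of 16, no filter, the mean of a gene's probes, array weights, the arms compared alone, subtraction of days 0 and 1, probes before the break alone, and leaving out arrays or days. The subtraction was run only for the comparisons of OCT4, NANOG and SOX2 shRNA with the control virus. The sample number marks the day, per the labels, and so pairs the arms: of 76 same-day correlations of deviations from the group means, 48 exceeded 0.1 (median 0.14), and a fit with day as a block was an alternative. The members and lists were chosen with earlier results of these data known. Values on every array are given for the genes with the largest called differences from the control virus (up to 10 for OCT4, 5 each for NANOG and SOX2), the largest falls and the genes called in opposite directions, and from each other list up to 3 genes are named. Promoter sequences are RefSeq's, matched by symbol; the arrays' files name no genome build.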

Additional observations from a re-analysis of the deposited data

Results flagged for a closer look

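Among 192 groups of 4 late arrays, 8 (4.17%) held 1 array set apart from the other 3 by more than Dixon's critical value, and chance alone sets apart about 1 in 20 groups. With OCT4 shRNA in H1 cells, LUM was 9.59 on day 4 and 10.90 to 11.08 on the other days, and TNC was 9.75 on day 4 and 10.63 to 10.76 on the others. In the same arm COL11A1 was 9.06 on day 7 and 8.37 to 8.44 before, and TIMP1 was 12.03 on day 7 and 11.37 to 11.48 before. With SOX2 shRNA, TGFBI was 9.23 on day 7 and 7.69 to 7.92 before. With the control virus, COL5A2 was 7.02 on day 7 (7.46 to 7.53 on the others), COL6A1 was 9.93 on day 5 (9.66 to 9.69) and MMP14 was 6.31 on day 6 (6.20 to 6.21, all below background).

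The late change with OCT4 shRNA differed between the lines for 21 genes, by limma's test of the difference itself (H9 change minus H1 change). Lower in H9 cells were the changes of TGFBI (-5.09), COL5A2 (-3.75), COL5A1 (-3.45), COL2A1 (-3.29), COL6A3 (-3.02), COL1A2 (-1.67), THBS1 (-1.64), FBN2 (-1.43), LAMC1 (-1.21), LOXL1 (-1.13), TIMP2 (-0.96), LAMA5 (-0.88) and LAMB1 (-0.84). COL3A1 (-4.49), LUM (-4.35), DCN (-2.40), LOX (-1.60) and FN1 (-1.07) have fitted values as well, but at most 1 of their 4 late H9 arrays was above background, so these sizes are not measured on both sides and have no order. LUM, DCN, LOX and FN1 also passed the filter only through the late H1 OCT4 shRNA arrays, so their calls are descriptions. Higher in H9 cells were those of COL4A2 (1.04) and COL4A1 (0.88), and that of THBS2 with a fitted value of 1.14. For THBS2 only 1 of the 4 late H1 arrays was above background, so its size is not measured on both sides either. For COL5A2 every late H9 array was below its days 0 and 1 and every late H1 array above them.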

How the results depend on the processing

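With OCT4 shRNA the count of 31 called genes stayed between 30 and 34 with arrays or days left out, and 24 of the 31 calls held under every setting. Several other counts moved by over 1.5 times, and the cause was not tested. With arrays or days left out, NANOG shRNA gave 8 to 19 calls (14 in the report), SOX2 shRNA 5 to 10 (13), the H9 change 6 to 14 (10), the control arm 0 to 1 (1), the difference between the lines 13 to 24 (21), and days 2 and 3 gave 0 to 7 for OCT4, 0 to 5 for NANOG and 0 to 2 for SOX2. Array weights gave 30 calls for NANOG, 21 for SOX2, 6 for NANOG and 5 for SOX2 on days 2 and 3. Arms fitted alone gave 24 for NANOG, 20 for SOX2, 13 between the lines, 3 in the control arm and, on days 2 and 3, 2 for OCT4, 5 for NANOG and 6 for SOX2. Subtracting days 0 and 1 left 2 calls for NANOG and 0 for SOX2 (limma, 6 genes at an unadjusted p below 0.05), and turned TIMP2 to 0.23 with SOX2 shRNA. Probes before the break alone gave 4 calls in H9 and 11 between the lines, over fewer genes. On days 2 and 3 of NANOG shRNA an offset of 16, no filter and the mean of probes each gave 1 call, and the mean of probes gave 1 for SOX2; an offset of 16 gave 0 in the control arm (limma, 5 genes unadjusted). With day as a replicate block the counts were 32 for OCT4, 17 for NANOG, 13 for SOX2, 12 for H9 and 23 between the lines, and only that of NANOG on days 2 and 3, with 4 calls in place of 2, moved by over 1.5 times. With no filter another, dim probe represented DCN, which then differed by -0.0188 (OCT4 shRNA minus control), -0.10 (H1 change), -0.12 (OCT4 minus NANOG) and -0.10 (OCT4 minus SOX2). Genes near background, such as HSPG2, ELN, COL14A1 and POSTN, could show only changes that lift them above it.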

Other observations

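The genes of this paragraph and the next were chosen after their values were seen and carry no test. In all 5 arms 3 collagen chains were higher on day 1 than on day 0, the control virus included. COL11A1 on days 1 and 0 was 8.92 and 7.46 with H1 OCT4 shRNA, 7.88 and 7.14 with H9 OCT4 shRNA, 9.03 and 7.30 with NANOG shRNA, 8.69 and 7.33 with SOX2 shRNA and 8.23 and 7.52 with the control virus. COL1A2 on the same days was 10.46 and 9.15, 9.17 and 8.93, 10.48 and 9.30, 10.53 and 9.51, and 10.04 and 9.25 in that order of arms. COL5A2 was 7.85 and 7.12, 9.03 and 8.48, 8.82 and 7.03, 8.76 and 7.29, and 8.39 and 7.03.

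SPARC, COL6A2, BGN and COL4A1, not called with OCT4 shRNA in H1 cells, were below every late array of the control virus on days 4 and 5 and above them on day 7. SPARC was 9.79, 9.68, 9.97 and 10.98 on days 4 to 7, against 10.14 to 10.28 with the control virus. COL6A2 was 7.55, 7.44, 8.08 and 9.41, against 7.86 to 8.82. BGN was 7.54, 6.96, 7.76 and 9.78, against 7.75 to 8.39. COL4A1 was 10.11, 9.82, 10.16 and 11.28, against 10.27 to 10.63.

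Among enzymes that prepare collagen, 2 prolyl 4-hydroxylase chains rose in H9 cells. P4HA1, which hydroxylates prolines so that the triple helix holds, was 10.13, 10.06, 10.08 and 9.84 on days 4 to 7 of OCT4 shRNA, against 8.07 and 8.38 on days 0 and 1 (limma, change 1.80, SE 0.21, adjusted p = 2.6e-07), and its change exceeded that of H1 cells by 1.21 (SE 0.30, adjusted p = 0.0028). P4HA2 was 9.57, 8.90, 9.09 and 8.40, against 7.46 and 7.72 (limma, change 1.40, SE 0.26, adjusted p = 0.00013). Of the 23 tested genes of that list, 4 were higher and 3 lower in H9 cells, where 26.8% of all genes were called, 13.8% higher and 13.0% lower. With the control virus in H1 cells P4HA1 was highest on days 3 and 4, at 10.39 and 10.40, and H9 cells have no control arm to set this against.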
